A study of Zea mays with 12 samples.

Results

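Glutathione transferases join the tripeptide glutathione to reactive or foreign molecules. In maize they are known for detoxifying herbicides, and plants treated with herbicide safeners raise several of them. The plant enzymes fall into classes, of which phi and tau are the largest and act mainly in detoxification. The products are carried into the vacuole by transporters of the ABC family, and glutathione itself is made by glutamate-cysteine ligase and glutathione synthetase and recycled by glutathione reductase.

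The genes described here are the 31 maize genes whose symbol or synonym is gst followed by a number and an optional letter, in the array's annotation or in the RefSeq gene table. They were chosen by name and not by any measured value. They are 31 of the 1108 genes that could be named on the array, and they were measured by 35 of the 17621 probe sets tested. On these arrays a transcript is read by several short probes, together called a probe set, whose brightness is combined into 1 signal. Of the genes, gst13 had 2 probe sets, gst31 had 4, and each of the others had 1. In counts of genes each gene stands for its brightest probe set. The gene called GST3 here is also listed in RefSeq as gst3a, gst3b and gst4, and gst2 is also listed as GST4 and GSTIV.

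RNA came from embryos of field-grown maize at 19 days after pollination and was hybridised to 12 one-colour Affymetrix maize arrays. There were 4 genotypes with 3 biological replicates each: the hybrids B73xMo17 and Mo17xB73, which are the 2 directions of the same cross, and their inbred parents B73 and Mo17. Per the labels' protocols, same-numbered replicates of the 4 genotypes were collected on 1 date. The seed parent is by convention the one written first, which the labels do not spell out. In a hybrid embryo each parent gives 1 set of chromosomes, and a hybrid that expresses both parental sets at their inbred rates would lie at the mid-parent, the mean of the linear inbred levels. The series title frames its question as whether expression in the hybrids is additive in this way.

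The array medians of the deposited signals ran from 192.1 to 313.8, so signals were quantile normalized before any comparison. Within a genotype the log2 signals of replicate arrays correlated at 0.969 to 0.974 across probe sets. The embryo label was checked against marker genes. The embryo genes ole1, an oil body protein, and glb1, a storage globulin, had mean signals at percentiles 100 and 99.9 of all probe sets. Endosperm genes were bright too, and the zein z1C1_4 stood at percentile 99.9. The 4 genes of leaf photosynthesis lay no higher than percentile 37. A signal depends on how well the probes match each allele, and allele sequences were not used here.

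Signal levels varied widely along the list, as the plot of members by array shows. The brightest member was gst1, which encodes the abundant phi-class subunit of GST I that conjugates atrazine. Its normalized signals were 10560, 10646 and 11462 in B73xMo17, 10926, 10270 and 11622 in Mo17xB73, 10154, 9989 and 10352 in B73, and 12025, 11164 and 10766 in Mo17. Its mean stood at percentile 99.6 of all probe sets, and the Mo17 arrays were above the B73 arrays by a small margin. The next brightest were gst30, gst41, gst10 and gst17, at percentiles 95.5, 81.5, 78 and 77.4. At the low end, gst7, gst8, gst9, gst16, gst18, gst24, gst32, gst35 and GST39 had all 4 group means at or below a signal of 27.6, the 25th percentile of all normalized signals, used here as a floor. Detection calls were not used, so these 9 signals cannot be told from background. gst13 was in that range in 2 groups and gst42 in 1. The other 20 genes were above the floor in all 4 groups.

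**Figure D1:**
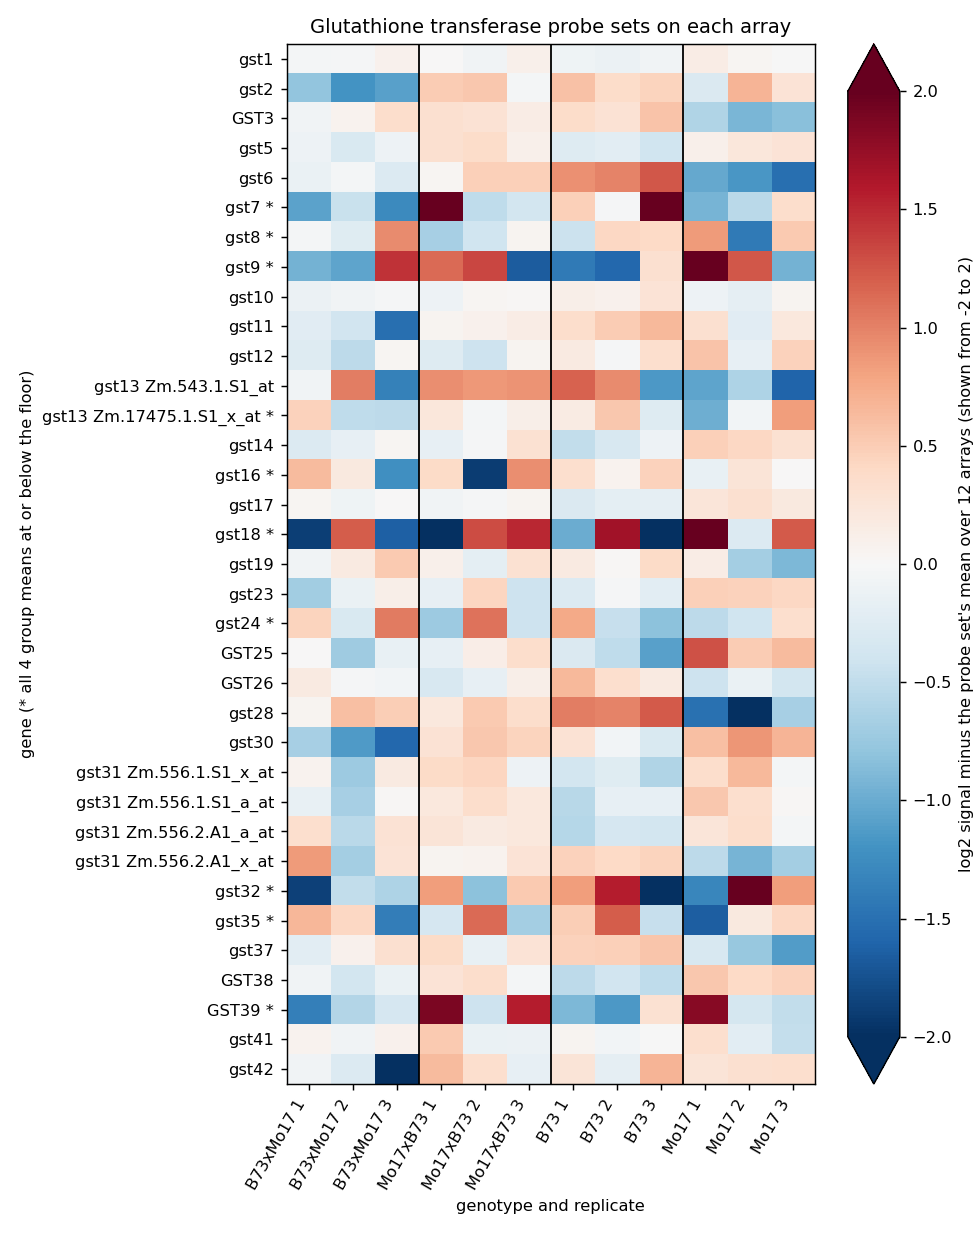
Each row is a glutathione transferase probe set and each column an array, grouped by genotype with the hybrids left of the inbreds. Colour gives the log2 signal minus that probe set's mean over the 12 arrays, and an asterisk marks genes whose 4 group means were all at or below the floor of 27.6. The B73xMo17 columns are low for gst30 and gst2, and the B73 and Mo17 columns contrast for gst6 and gst28.

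The comparison of the inbreds asked which members differ between B73 and Mo17. In B73, gst28, gst6, gst37, GST3, GST26, gst19 and gst10 were higher than in Mo17, and GST25, GST38, gst30, gst31, gst14, gst5 and gst17 were lower. That is 14 of 31 genes (45.2%) past an adjusted p of 0.05 by limma with Benjamini-Hochberg adjustment over all probe sets, 7 in each direction. Over all probe sets 35.9% were called, 16.4% higher and 19.5% lower in B73. On the values as deposited, 7 of the 31 genes were called, 5 higher and 2 lower, and the split over all probe sets turned the same way, with 10.3% higher and 6.53% lower. The median difference of the 31 genes was 0.02 on the log2 scale, against -0.06 over all probe sets. The median absolute difference was 0.7 for the 31 genes and 0.35 for all probe sets. The 3 arrays of each inbred did not overlap for 16 genes, and over all probe sets this held for 46.9%. Because RNA came from embryo tissue, a lower signal from fewer cells of a type cannot be told apart from less RNA per cell.

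**Figure D2:**
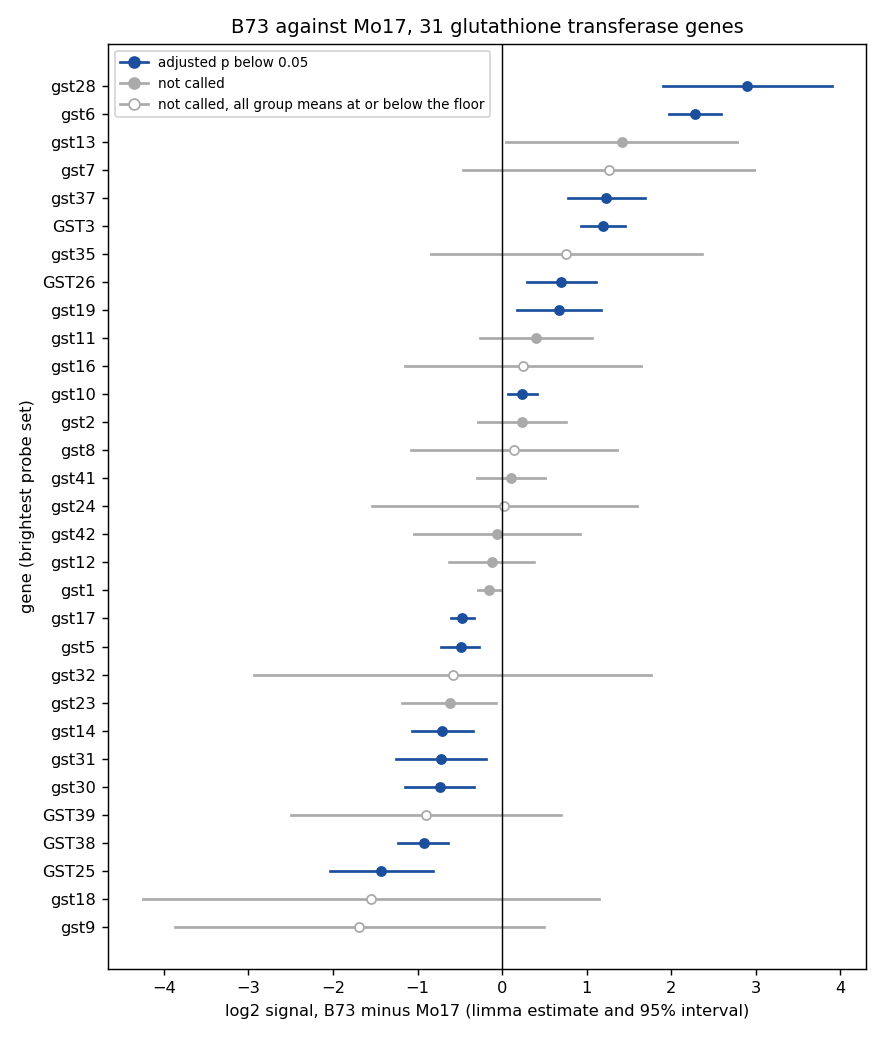
Points give the limma estimate of the log2 difference B73 minus Mo17 for the brightest probe set of each of the 31 genes, and bars its 95% interval. Blue marks the called genes, grey the others, and open points those with all 4 group means at or below the floor, most of which have wide intervals. gst28 and gst6 lie farthest to the right among called genes and GST25 farthest to the left.

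Among the genes higher in B73, gst6 encodes a tau-class enzyme. Its signals were 1322, 1403 and 1668 in B73 and 345, 316 and 247 in Mo17. Every B73 array was far above every Mo17 array, and the difference was 2.28 ± 0.14 (SE), a fold of 4.87 (limma, adjusted p = 2.5e-08). gst28 had 255, 250 and 296 in B73 and 44.6, 12.7 and 79.7 in Mo17. The B73 arrays lay close together and the Mo17 arrays were spread, with 1 of them below the floor. The difference was 2.9 ± 0.46 (adjusted p = 2e-04), and 2.53 after signals were raised to the floor.

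GST3 encodes the phi-class subunit of GST III, which acts on the herbicide alachlor. Its signals were 548, 517 and 631 in B73 and 281, 226 and 238 in Mo17, with no overlap. The difference was 1.19 ± 0.12 (limma, adjusted p = 3.3e-06), a fold of 2.28. gst37 had 201, 203 and 215 in B73 and 117, 85.9 and 67.6 in Mo17. Its B73 arrays were again all higher, by 1.23 ± 0.21 (adjusted p = 0.00036).

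GST26, gst19 and gst10 were higher in B73 by smaller amounts. GST26 had 137, 110 and 98.8 in B73 and 65, 79.6 and 67.3 in Mo17, a difference of 0.7 ± 0.19 (limma, adjusted p = 0.011). gst19 had 490, 444 and 564 in B73 and 480, 271 and 234 in Mo17, so that Mo17 replicate 1 lay inside the B73 range. Its difference was 0.67 ± 0.23 (adjusted p = 0.037). gst10 had 992, 965 and 1105 in B73 and 844, 801 and 945 in Mo17, a difference of 0.24 ± 0.08 (adjusted p = 0.028). All 3 calls rested on particular arrays. GST26 lost its call without B73 replicate 1 (adjusted p = 0.055) and as deposited (0.051). gst19 lost it without B73 replicate 1 or 3 or Mo17 replicate 2 or 3, with an adjusted p of up to 0.16, and with the floor or without the intensity trend (up to 0.093). gst10 lost it without B73 replicate 3 or Mo17 replicate 1 or 2, with an adjusted p of up to 0.12, and under median centring, as deposited or without the trend (up to 0.57).

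Among the genes lower in B73, GST25 had 60, 52 and 34.7 in B73 and 177, 105 and 114 in Mo17. The groups were apart, with a difference of -1.43 ± 0.28 (limma, adjusted p = 0.0012). GST38 had 111, 123 and 112 in B73 and 234, 210 and 219 in Mo17, 2 tight groups with a difference of -0.93 ± 0.14 (adjusted p = 0.00011). gst14 had 91, 102 and 120 in B73 and 179, 171 and 159 in Mo17, also without overlap, with a difference of -0.71 ± 0.17 (adjusted p = 0.0039).

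gst30 was bright in both inbreds, with 5459, 4281 and 3621 in B73 and 6763, 8173 and 7134 in Mo17. All B73 arrays were below all Mo17 arrays, with a difference of -0.74 ± 0.19 (limma, adjusted p = 0.0069). gst5, which encodes the tau-class GST V, had 272, 281 and 245 in B73 and 349, 382 and 393 in Mo17, a difference of -0.49 ± 0.11 (adjusted p = 0.002). gst17 had 726, 770 and 782 in B73 and 1049, 1101 and 1010 in Mo17, a difference of -0.47 ± 0.07 (adjusted p = 6.2e-05). Neither gene overlapped between the inbreds. GST25 and GST38 stayed called on the values as deposited, while gst14, gst30, gst5 and gst17 did not, with adjusted p-values of 0.27, 0.06, 0.34 and 0.28.

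gst31 was read by 4 probe sets, which disagreed. The probe sets are told apart here by the ends of their names, and the brightest, S1_x_at, had 120, 131 and 102 in B73 and 198, 242 and 151 in Mo17. The difference was -0.72 ± 0.25 (limma, adjusted p = 0.035), and the call was lost without B73 replicate 1 or 3 or Mo17 replicate 1 or 2, with an adjusted p of up to 0.14, and on the values as deposited, with the floor or without the intensity trend of the fit, with an adjusted p of up to 0.19. S1_a_at and A1_a_at also gave lower values in B73, with differences of -0.59 ± 0.19 (adjusted p = 0.03) and -0.6 ± 0.21 (adjusted p = 0.041). S1_a_at lost its call without B73 replicate 1 or Mo17 replicate 1 or 2, with an adjusted p of up to 0.12, and as deposited or with the floor (up to 0.36). Blocking on the replicate number ended the call of A1_a_at (adjusted p = 0.051), and so did leaving out any 1 of 8 arrays, with an adjusted p of up to 0.13, and median centring, the values as deposited, the floor and the fit without the trend (up to 0.44). A1_x_at ran the other way, with 133, 126 and 130 in B73 and 66.7, 50.2 and 59.8 in Mo17. That difference was 1.15 ± 0.29 (adjusted p = 0.0072), and it stayed called without any 1 array. In Affymetrix names, _x_at marks a probe set whose probes may also bind other transcripts, and _a_at one that reads several transcripts of a gene. No single direction can be given for gst31, whose call in the count above is that of its brightest probe set.

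**Figure D3:**
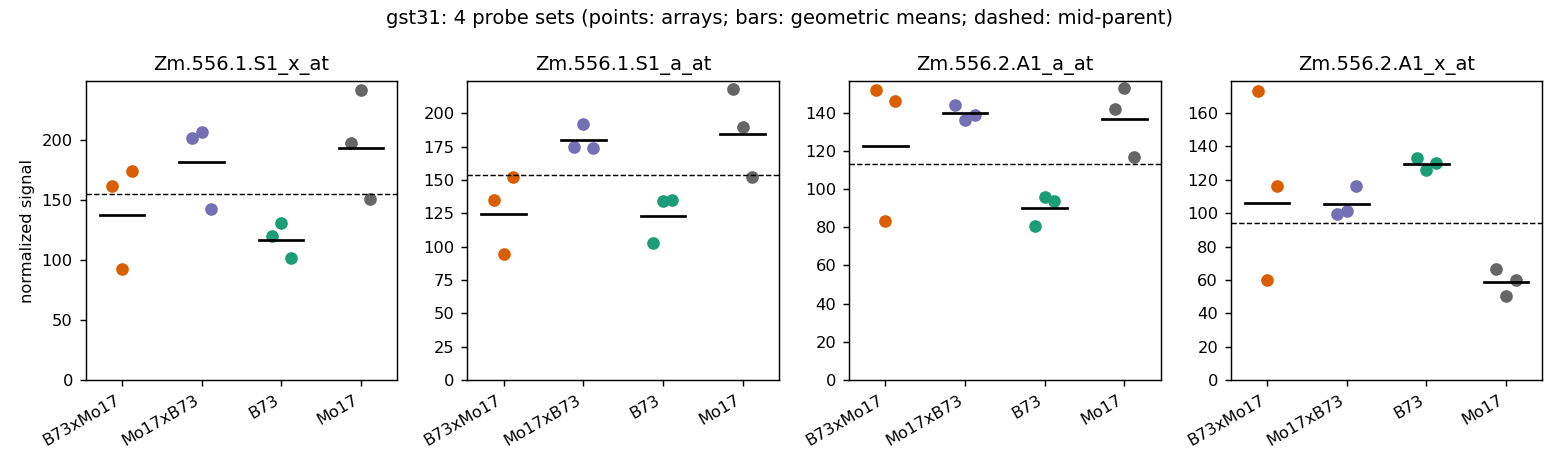
Each panel is a gst31 probe set. Points are the normalized signals of the 3 arrays of each genotype, short lines the group's geometric mean, and the dashed line the mid-parent, on axes that start at 0. In 3 panels B73 is below Mo17, and in the A1_x_at panel B73 is above Mo17.

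The other 17 genes missed the threshold between the inbreds. The 9 genes at or below the floor differed by -1.69 to 1.26, with standard errors of 0.56 to 1.25 (limma), and none was called. gst1 differed by -0.15 ± 0.06 (limma, adjusted p = 0.062), and passed at 0.042 without Mo17 replicate 3 and at 0.044 under median centring. gst13 had 60.5, 51.6 and 12.1 in B73 and 12.8, 17.5 and 8.82 in Mo17 on its brighter probe set. That difference of 1.42 ± 0.63 missed the threshold (adjusted p = 0.1) but passed when replicate number was a block (0.035) and without B73 replicate 3 (0.0097). All 3 Mo17 arrays were below the floor, and with signals raised to it the difference was 0.68 (adjusted p = 0.15). Its other probe set stayed below the floor on all 12 arrays. gst23 had 55.4, 66 and 57.5 in B73 and 92.8, 92.5 and 89.5 in Mo17, without overlap, at -0.62 ± 0.26 (adjusted p = 0.077). gst41 had 1153, 1066 and 1109 in B73 and 1408, 963 and 803 in Mo17, and the B73 arrays lay inside the Mo17 range. gst2 had 169, 145 and 152 in B73 and 92.2, 180 and 136 in Mo17, which also overlapped. gst11, gst12 and gst42 differed by 0.4, -0.12 and -0.06 and were not called.

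Markers of another seed tissue moved with the same comparison. The 5 genes of the basal endosperm transfer layer, which feeds the seed, summed to 11.5 to 11.8 in B73 and 12.79 to 13.44 in Mo17 on the log2 scale, and 4 of the 5 were lower in B73 by the same test. The 12 endosperm genes summed to 16.03 to 16.16 in B73 and 15.52 to 15.89 in Mo17, with 4 called higher in B73. The 6 embryo genes summed to 15.15 to 15.29 in B73 and 15.11 to 15.39 in Mo17. Of these, 2 were called higher and 1 lower in B73. None of these lists was near 0 in any group. Their part in the differences of the glutathione transferases was not tested.

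Several members lie next to each other in the gene order of RefSeq, and neighbours did not all differ in 1 direction between the inbreds. Of the 31 genes, 15 fell into 5 groups in which no more than 10 genes separate a member from the next. The longest run holds 6, in the order gst42, gst32, gst37, GST39, GST38 and gst30. Its neighbours GST38 and gst30 were both lower in B73, with no gene between them, while gst37 was higher in B73 and is separated from GST39 by 1 gene. gst28 and gst7 are adjacent, as are gst13 and gst9. gst11, gst12 and gst10 form a run with 1 gene between gst12 and gst10, and of these gst10 alone was called.

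Each hybrid was then set against the mid-parent, and the hybrids against each other. In B73xMo17, gst30 and gst2 were lower than the mid-parent by 2.87-fold and 2.59-fold. In Mo17xB73 no member was called. The share of all probe sets called against the mid-parent was 0.789% in B73xMo17 (0.477% lower) and 0.528% in Mo17xB73, so that nearly all probe sets, like 29 and 31 of the 31 members, missed the threshold. These shares depended on single arrays. Without 1 array they ran from 0.244% (B73xMo17 replicate 3 left out) to 0.863% for B73xMo17 and from 0.0624% (Mo17xB73 replicate 3 left out) to 0.721% for Mo17xB73.

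gst30 had normalized signals of 2804, 2028 and 1491 in B73xMo17, 5438, 6461 and 6048 in Mo17xB73, 5459, 4281 and 3621 in B73 and 6763, 8173 and 7134 in Mo17. The B73xMo17 arrays were below those of all the other genotypes, and the Mo17xB73 arrays lay around the mid-parent of 5862. B73xMo17 departed from the mid-parent by -1.52 ± 0.16 (limma, adjusted p = 0.0012). Mo17xB73 departed by 0.03 ± 0.16, with a 95% interval of -0.33 to 0.38. The reciprocal hybrids differed by -1.55 ± 0.19 for B73xMo17 minus Mo17xB73 (adjusted p = 0.0019), and this call was kept without each array in turn, with an adjusted p of up to 0.014. B73xMo17 was also lower than B73, with a difference of -1.11 (adjusted p = 0.0016), and lower than Mo17, at -1.85 (adjusted p = 8.6e-06). These comparisons share arrays, so they are not separate evidence.

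gst2 encodes the phi-class GST IV subunit, known for its induction by safeners. It had 65, 48.9 and 52.7 in B73xMo17, 159, 163 and 109 in Mo17xB73, 169, 145 and 152 in B73, and 92.2, 180 and 136 in Mo17. Again the B73xMo17 arrays were below all others. The departure of B73xMo17 from the mid-parent signal of 143 was -1.37 ± 0.21 (limma, adjusted p = 0.0091), and that of Mo17xB73 was -0.02 ± 0.21, with a 95% interval of -0.47 to 0.43. The reciprocal difference was -1.36 ± 0.24 (adjusted p = 0.02). B73xMo17 was lower than B73, at -1.49 (adjusted p = 0.00098), and lower than Mo17, at -1.25 (adjusted p = 0.0019). The call against the mid-parent was lost without B73xMo17 replicate 3 (adjusted p = 0.052), and as deposited or without the intensity trend (up to 0.055). The reciprocal call was lost without B73xMo17 replicate 2 or 3 or Mo17xB73 replicate 1 or 2, with an adjusted p of up to 0.082, while the difference stayed between -1.54 and -1.26. It was also lost as deposited, with the floor or without the trend (up to 0.14).

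**Figure D4:**
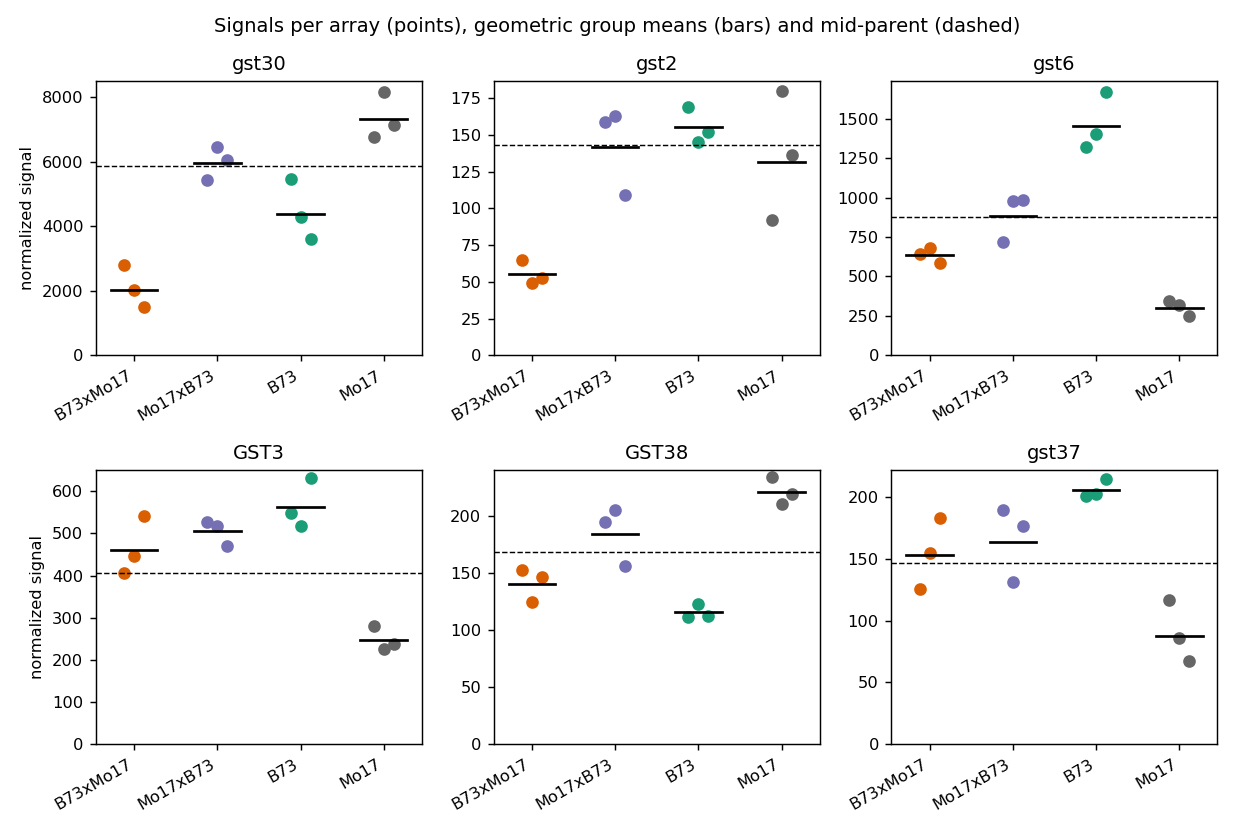
Panels show the normalized signals of gst30, gst2, gst6, GST3, GST38 and gst37 in the 4 genotypes, hybrids left of the inbreds. Points are arrays, short lines the group's geometric mean, and the dashed line the mid-parent, on axes that start at 0. For gst30 and gst2 the B73xMo17 points lie below those of the other 3 genotypes, and for GST3 and gst37 both hybrids stand above Mo17.

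The comparison of the reciprocal hybrids called the same 2 genes, gst30 and gst2, lower in B73xMo17. The background was 0.868% of all probe sets, with 0.363% higher and 0.505% lower in B73xMo17, and the total ran from 0.289% (Mo17xB73 replicate 3 left out) to 0.817% without 1 array. Of the 31 genes, 24 had a lower estimate in B73xMo17 (77.4%), against 48.1% of all probe sets, and the median difference was -0.19 against 0.01 over all probe sets. On the values as deposited those medians were -0.12 and 0.12. The genes with a lower estimate include gst7, gst9, gst18, gst32, gst35 and GST39, whose signals cannot be told from background. With signals raised to the floor their differences were -0.17 for GST39 and 0 for the others. The 3 arrays of the hybrids did not overlap for 6 genes, gst2, gst5, gst6, gst11, gst30 and GST38, and this held for 16.7% of all probe sets. At an unadjusted p under 0.05 there were 8 genes, all lower in B73xMo17, where 11.5% of all probe sets passed that threshold and 5.55% were lower. The 8 include GST39, at -1.78 but -0.17 with signals raised to the floor. They also include gst42, at -1.1 but -0.65 with the floor, whose B73xMo17 replicate 3 had a signal of 10.7.

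The genes that came nearest without passing were gst5, gst6, GST38 and gst11. gst5 had 302, 262 and 302 in B73xMo17 and 404, 417 and 347 in Mo17xB73 (-0.43 ± 0.11, limma adjusted p = 0.092). gst6 had 643, 682 and 584 in B73xMo17 and 720, 981 and 983 in Mo17xB73 (-0.48 ± 0.14, adjusted p = 0.19). GST38 had 152, 124 and 146 in B73xMo17 and 194, 205 and 156 in Mo17xB73 (-0.39 ± 0.14, adjusted p = 0.28). gst11 had 46.5, 41.6 and 19.2 in B73xMo17 and 56.5, 57.3 and 60.4 in Mo17xB73 (-0.8 ± 0.31, adjusted p = 0.33). In all 4 the B73xMo17 arrays were the lower ones.

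The transfer layer markers again moved with the comparison. Their sum was 12.32 to 12.84 in B73xMo17 and 13.25 to 13.73 in Mo17xB73 on the log2 scale. All 5 had a lower estimate in B73xMo17 and 2 were called, bap1-b at -1.33 (limma, adjusted p = 0.0046) and meg2 at -1 (adjusted p = 0.036). In the inbreds the same sum was 11.5 to 11.8 in B73 and 12.79 to 13.44 in Mo17. The endosperm sum was 16.11 to 16.16 in B73xMo17 and 15.87 to 16.04 in Mo17xB73. Of the 12 endosperm genes, dzs18 was called higher in B73xMo17, at 2.11 (limma, adjusted p = 2.9e-07), and z1C1_12 lower, at -1.69 (adjusted p = 0.0014). The embryo sum was 15.32 to 15.39 in B73xMo17 and 15.39 to 15.53 in Mo17xB73. Of the 6 embryo genes, glb3 alone was called, higher in B73xMo17 at 0.77 (adjusted p = 0.026). The part of any of these lists in the gst30 and gst2 differences was not tested.

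With both hybrids averaged, gst30 was the 1 member called against the mid-parent, at -0.75 ± 0.14 (limma, adjusted p = 0.029), where 0.528% of all probe sets were called (0.233% to 0.743% without 1 array). Its call was lost without any 1 of 6 arrays, B73xMo17 replicate 2, Mo17xB73 replicates 1 and 3, B73 replicate 2 and Mo17 replicates 2 and 3, with an adjusted p of up to 0.077, and as deposited, with the floor or without the trend (up to 0.15). The mean joins 2 hybrids that differed for this gene. gst2 stood at -0.7 ± 0.17 (adjusted p = 0.11) and passed without Mo17 replicate 1 (0.029). For Mo17xB73 alone, 2 members had an unadjusted p under 0.05, GST3 at 0.32 and gst5 at 0.28, both above the mid-parent and neither called. Of all probe sets 11.5% passed that threshold, and 3.54% passed it above the mid-parent.

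**Figure D5:**
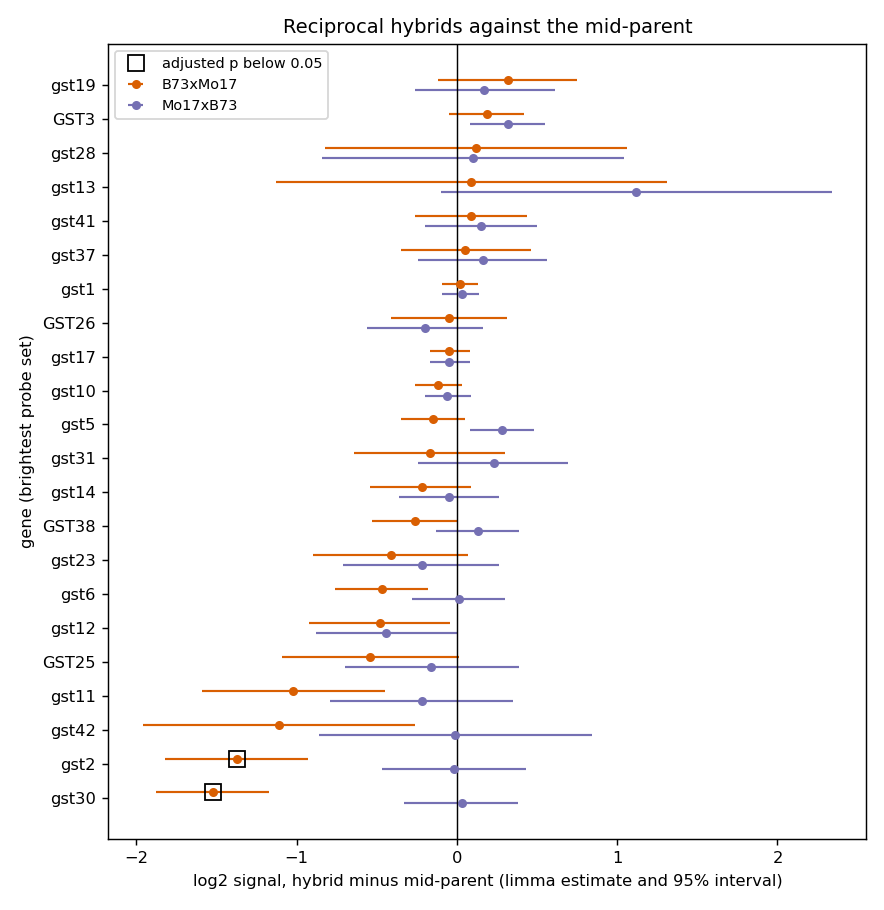
Points give the limma estimate of the log2 difference between each reciprocal hybrid and the mid-parent, and bars its 95% interval, for the genes with at least 1 group mean above the floor. Squares mark an adjusted p below 0.05. The B73xMo17 intervals of gst30 and gst2 lie to the left of 0 while their Mo17xB73 intervals hold 0.

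The hybrid arrays of the other genes that differed between the inbreds were as follows. Among genes higher in B73, gst28 had 131, 191 and 176 in B73xMo17 and 146, 181 and 161 in Mo17xB73, against 255, 250 and 296 in B73 and 44.6, 12.7 and 79.7 in Mo17. All 6 hybrid arrays lay between the 2 inbreds. GST3 had 406, 447 and 541 in B73xMo17 and 527, 518 and 471 in Mo17xB73, against 548, 517 and 631 in B73 and 281, 226 and 238 in Mo17. The hybrids overlapped B73 and stood clear of Mo17. gst37 had 126, 155 and 183 in B73xMo17 and 190, 131 and 177 in Mo17xB73, against 201, 203 and 215 in B73 and 117, 85.9 and 67.6 in Mo17. Its hybrid arrays filled the gap between the inbreds without reaching either. GST26 had 98.9, 85.6 and 83.7 in B73xMo17 and 69.6, 78 and 94.7 in Mo17xB73. gst19 had 416, 493 and 624 in B73xMo17 and 468, 377 and 535 in Mo17xB73, and gst10 had 837, 867 and 899 in B73xMo17 and 848, 940 and 929 in Mo17xB73. For these 3 the hybrid arrays overlapped those of at least 1 inbred.

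Among genes lower in B73, GST25 had 74.3, 45 and 66.5 in B73xMo17 and 65.5, 80.2 and 93.8 in Mo17xB73, against 60, 52 and 34.7 in B73 and 177, 105 and 114 in Mo17. Both hybrids were below every Mo17 array. gst14 had 106, 114 and 132 in B73xMo17 and 115, 126 and 158 in Mo17xB73, overlapping B73 and just below Mo17. gst17 had 911, 832 and 887 in B73xMo17 and 846, 867 and 917 in Mo17xB73, against 726, 770 and 782 in B73 and 1049, 1101 and 1010 in Mo17. All 6 hybrid arrays of gst17 lay between the inbreds, nearly at the same level in both crosses. On its brightest probe set gst31 had 162, 92.9 and 174 in B73xMo17 and 202, 207 and 143 in Mo17xB73, while A1_x_at had 173, 59.8 and 116 in B73xMo17 and 99.6, 101 and 116 in Mo17xB73. B73xMo17 replicate 2 was the lowest hybrid array on both probe sets. gst41, not called between the inbreds, had 1167, 1061 and 1180 in B73xMo17 and 1592, 1010 and 1028 in Mo17xB73, all overlapping.

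The hybrids were also set against each inbred. B73xMo17 was called lower than B73 for 4 genes, gst30, gst2, gst6 at -1.2 (limma, adjusted p = 8.9e-05) and gst11 at -1.21 (adjusted p = 0.021), where 11.0% of all probe sets were called (5.94% higher and 5.01% lower). As deposited, 0 of the 31 genes were called higher and 3 lower, against 2.27% and 0.522% of all probe sets. gst11 lost its call without B73xMo17 replicate 3 or B73 replicate 2 or 3 (adjusted p up to 0.069) and as deposited (0.14). gst10 stood at -0.23 (adjusted p = 0.082) and passed when replicate number was a block (0.039). Mo17xB73 differed from B73 in 4 genes, against 16.4% of all probe sets (8.26% higher and 8.18% lower). gst5 was higher by 0.55 (adjusted p = 0.0028), GST38 by 0.67 (adjusted p = 0.0046) and gst17 by 0.21 (adjusted p = 0.047), and gst6 was lower, at -0.72 (adjusted p = 0.0037). The gst17 call was lost without any 1 of 11 arrays, B73xMo17 replicate 2 being the exception, with an adjusted p of up to 0.16. As deposited, gst5, GST38 and gst17 were no longer called, with adjusted p-values of 0.56, 0.4 and 1. Of all probe sets 2.61% were then called higher and 2.09% lower.

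Against Mo17, B73xMo17 differed in 12 genes, where 22.3% of all probe sets were called (10.9% higher and 11.4% lower). As deposited, 4 of the 31 genes were called higher and 2 lower, against 5.6% and 1.36% of all probe sets. gst28 was higher by 2.2 (limma, adjusted p = 0.0037), gst6 by 1.09 (1e-04), GST3 by 0.9 (0.00012), gst37 by 0.8 (0.015) and gst19 by 0.69 (0.047). gst30, gst2, GST25, GST38, gst14, gst5 and gst17 were lower, with differences from -1.85 for gst30 to -0.26 for gst17. On the values as deposited gst5, gst14, gst17, gst19, GST25 and GST38 were no longer called. Of the 12 calls, 7 were kept without any 1 array. gst5, gst14, gst19, GST25 and gst37 each lost theirs without at least 1 array. The arrays were B73xMo17 replicate 2 and Mo17 replicates 2 and 3 for gst5 (adjusted p up to 0.081), and B73xMo17 replicates 1 and 2 and any Mo17 replicate for gst14 (up to 0.11). They were B73xMo17 replicate 2 and Mo17 replicate 1 for GST25 (up to 0.066), and B73xMo17 replicate 3 and Mo17 replicate 3 for gst37 (up to 0.067). For gst19 they were all arrays but B73xMo17 replicate 1, Mo17xB73 replicate 2 and Mo17 replicate 1 (up to 0.19).

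Mo17xB73 differed from Mo17 in 6 genes, where 16.3% of all probe sets were called (8.88% higher and 7.45% lower). As deposited, 5 of the 31 genes were called higher and 0 lower, against 4.21% and 0.874% of all probe sets. gst28 was higher by 2.18 (limma, adjusted p = 0.0051), gst6 by 1.56 (3.7e-06), GST3 by 1.03 (4.1e-05), gst37 by 0.9 (0.0094) and gst13 by 1.99 (0.047), and gst17 was lower, at -0.26 (0.014). gst17 lost its call without Mo17xB73 replicate 1 or Mo17 replicate 2 (up to 0.062) and as deposited (0.48). gst13 lost it without B73xMo17 replicate 1, B73 replicate 2 or any array of Mo17xB73 or Mo17 (up to 0.15), and with the floor or without the trend. All 3 Mo17 arrays of gst13 were below the floor, and with signals raised to it the difference was 0.86 (adjusted p = 0.12). GST3, gst6, gst28 and gst37 were thus called higher than Mo17 in both hybrids, which were tested against the same Mo17 arrays.

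The place of the hybrid between its parents was described for the 11 genes called between the inbreds with a fold of at least 1.5. The measure is the departure of the hybrid mean from the mid-parent, divided by the distance from the mid-parent to an inbred, so that -1 is the lower inbred and 1 the higher. Its median was -0.14 over the 11 genes and -0.09 over the 3766 probe sets chosen the same way. It lay within 0.5 of the mid-parent for 9 of the 11 genes (81.8%) and for 76.9% of those probe sets. The values were 0.1 for gst28, -0.22 for gst6, 0.19 for gst37, 0.49 for GST3 and -0.35 for GST26. They were -0.47 for GST25, -0.14 for GST38, -0.38 for gst14 and 0.08 for the brightest gst31 probe set. gst19 stood nearer its higher inbred, at 0.81, and the hybrid mean of gst30 lay outside the inbreds at -1.61. That mean joins unlike hybrids, with -2.6 in B73xMo17 and 0.07 in Mo17xB73.

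Other genes linked to glutathione, outside the name rule, were read from a list of names, of which 9 genes with 13 probe sets were found. The list was open to glutathione transferases under other names. Some of them make, recycle or carry glutathione or its conjugates, and others, such as apx2, do not. Between the inbreds 6 of the 9 were called (66.7%), 4 higher and 2 lower in B73, with a median of -0.02. Over all probe sets 35.9% were called, 16.4% higher and 19.5% lower, and the median was -0.06. In2-1, a safener-induced gene, was higher in B73 (limma, difference 4.81 ± 0.5, adjusted p = 3.9e-06). Its Mo17 mean of 3.48 was below the floor of 4.78 on the log2 scale, so 4.81 has no firm size, and with signals raised to the floor the difference was 3.5 (adjusted p = 1e-08). MRP2, an ABC transporter, was higher by 2.97 ± 0.17 (adjusted p = 1.1e-08). gor1, glutathione reductase, was higher by 1.36 ± 0.1 (adjusted p = 1.3e-07) and gsh2, glutathione synthetase, by 0.3 ± 0.11 (adjusted p = 0.038). gsh1, glutamate-cysteine ligase, was lower in B73, at -0.88 ± 0.1 (adjusted p = 8.2e-06), and apx2, an ascorbate peroxidase, at -0.59 ± 0.14 (adjusted p = 0.0037). On their brightest probe sets glx1, MRP1 and MRP4 were not called. A dimmer glx1 probe set, with a Mo17 mean below the floor, was called higher in B73 at 0.8 ± 0.29 (adjusted p = 0.048). With signals raised to the floor its difference was 0.54 (adjusted p = 0.026), while the other glx1 probe sets had negative differences and were not called. A second MRP2 probe set was not called, at 1.73 ± 0.71 (adjusted p = 0.076), and its difference was 0 with the floor. Against the mid-parent gsh1 was the 1 gene called, lower in B73xMo17, at -0.41 ± 0.09 (adjusted p = 0.047). Of all probe sets 0.789% were called in that comparison, 0.477% lower. None of the 9 was called between the reciprocal hybrids, where 0.868% of all probe sets were called.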

How the data were processed

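The values are linear intensity signals for probe sets on 12 arrays, as deposited by the authors. The submitters' processing notes name MAS5, and its version and any scaling between arrays are not given in the sources used here. The table holds 113 control probe sets, which were left out, and 17621 others. Signals were quantile normalized, taken to log2 and fitted with limma 3.58.1 in R 4.3.3, with 1 mean per genotype, an intensity trend and no block (8 residual degrees of freedom; median prior degrees of freedom 5.1). Tests were two-sided, with Benjamini-Hochberg adjustment over all 17621 probe sets and a threshold of 0.05. Errors are standard errors on the log2 scale. The mid-parent was the mean of the linear inbred levels, with its error by the delta method. The procedure was tested on simulated data with normal noise. Shifts were put only into brighter probe sets, so recovery of shifts in dimmer ones was not tried. The number of arrays limits the precision. Per the labels, a genotype's replicates are distinct biological collections.

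The labels say that same-numbered samples were collected together, so the numbers pair the samples. Deviations from the group means correlated at -0.05 to 0.06 over 18 same-numbered pairs, with a median of 0.01, and at -0.05 to 0.05 over other pairs.

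Names came from the platform annotation, updated through RefSeq: 1452 probe sets had 1 gene, 1 had several and 16168 had none. No sequences were used, and RefSeq coordinates served only to order the genes. Values on each array are given for genes called between the inbreds at 0.5 or more on the log2 scale, called in a hybrid comparison, among the 5 brightest, or with probe sets that disagree, and some others near a threshold were added after their values were seen. The marker GLB1, a haemoglobin, was removed from the embryo list. The members and all lists were chosen with earlier results of these data known. Alternatives tried were median centring, the values as deposited, a floor, leaving out dim probe sets, no trend, a log2 mid-parent, the replicate block and each array left out.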

Additional observations from a re-analysis of the deposited data

Results flagged for a closer look

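The departure from the mid-parent differed between the reciprocal hybrids for gst30 and gst2, by the direct test of B73xMo17 minus Mo17xB73. For gst30 this difference was -1.55 on the log2 scale (limma, adjusted p = 0.0019), with all 3 B73xMo17 arrays below all 3 Mo17xB73 arrays. For gst2 it was -1.36 (adjusted p = 0.02), again with all 3 arrays lower, and this call was lost under several of the alternatives. Groups of 3 arrays are too small for a check of outlying arrays.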

How the results depend on the processing

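Counts of genes called below are given as the alternative against the main setting. On the values as deposited, without normalization, there were 7 against 14 between the inbreds (5 higher and 2 lower in B73), 0 against 1 for the hybrid mean, 1 against 2 for B73xMo17 against the mid-parent, 1 against 2 between the reciprocal hybrids, 6 against 12 for B73xMo17 minus Mo17 and 1 against 4 for Mo17xB73 minus B73. The shares of all probe sets called also fell, in the same order to 16.8%, 0.0454%, 0.108%, 0.238%, 6.95% and 4.7%. With the floor 0 member genes were called for the hybrid mean and 1 between the reciprocal hybrids. Without the trend there were 0 for the hybrid mean, 1 for B73xMo17 against the mid-parent and 1 between the reciprocal hybrids. Of the 14 calls between the inbreds, 2 were lost with the floor (gst19 and gst31). Without the trend 3 were lost (gst10, gst19 and gst31). With a log2 mid-parent there were 3 for the hybrid mean (gst30 and gst2 lower, GST3 higher), 3 for B73xMo17 (gst30, gst2 and gst11 lower), and 1 for Mo17xB73, GST3. The log2 mid-parent is never above the linear one, so each estimate against it is as high or higher. GST3 stood at 0.37 against 0.25 for the hybrid mean. Why gst2 and gst11 gained calls was not tested. Without each array in turn the counts ran from 11 to 14 between the inbreds, 0 to 2 for the hybrid mean, 1 to 2 for B73xMo17, 0 for Mo17xB73 and 1 to 2 between the reciprocal hybrids. They ran from 3 to 4 for B73xMo17 minus B73, 8 to 13 for B73xMo17 minus Mo17, 3 to 5 for Mo17xB73 minus B73 and 4 to 6 for Mo17xB73 minus Mo17. With the replicate block the counts, in the order just given, were 15, 1, 2, 0, 2, 5, 12, 3 and 6. The block changed calls for gst13, gst10, gst17 and 2 gst31 probe sets and no other. No value tested changed sign past the threshold. Over all probe sets, 2963 against 6321 were called between the inbreds on the values as deposited. For the hybrid mean the count was 93, and it was 8 as deposited, 184 with median centring, 153 with the block, 881 with a log2 mid-parent and 4 without the trend. Between the reciprocal hybrids it was 42 as deposited and 76 with the floor, against 153. The reciprocal median of all probe sets moved to 0.12 as deposited, against 0.01. An alternative background correction was not run, since the signals were already summarised. Signals near the floor limit what the 9 dim genes can show.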
